A study of Zea mays with 6 samples.

Results

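Of 44146 genes listed for the maize leaf sheath, 59 were at 0 in all 3 wild-type (WT) libraries and reached at least 1 FPKM in all 3 from the GARR2 knockout (GARR2KO). FPKM is the number of sequenced fragments per kilobase of gene, scaled to the size of the library. The 59 genes, called silent-in-WT genes here, were chosen by these same values, so their absence from WT and their presence in GARR2KO are a description and carry no test. They made up 0.134% of all listed genes and 0.284% of the 20743 genes at 1 FPKM or more in all 3 GARR2KO libraries. In the opposite direction, 33 genes were at 0 in every GARR2KO library among 20586 genes at 1 FPKM or more in all 3 WT libraries, or 0.16%.

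RNA was sequenced from the sheath of leaf 2 of untreated Zea mays seedlings with 3 leaves, in 3 WT and 3 GARR2KO libraries labelled as biological replicates. The labels give no other allele, and they do not say how GARR2 was removed, from how many independent lines the GARR2KO replicates came, or whether WT and GARR2KO share a genetic background. Where nothing says that the replicates came from separate plants, the spread between them may be partly technical. No identifier of the files could be matched to a gene symbol, so the level of GARR2 itself and the markers of the leaf sheath were not checked here.

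In grasses the leaf base forms a sheath that wraps the shoot, and its elongation responds to gibberellin, the growth hormone that gives GARR2 its interest as a gibberellin-responsive long noncoding RNA. Long noncoding RNAs are transcripts without a long reading frame, some of which change the activity of other genes near to or far from their own locus. Gene models that give transcripts in some maize lines and none in others are well known in this species. What the 59 genes encode is not reported, because neither the files nor the gene table at hand pairs their identifiers with names, and for the same reason no sequence or coordinate is given.

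The FPKM values allowed reads to be counted. Within a gene they were whole multiples of what 1 read is worth, which gave the reads behind each value and the length of each gene in base pairs (bp). Summed over genes, the recovered reads came to between 17750644 and 20722225 in the WT libraries, and to between 17723635 and 19182412 in those of GARR2KO. A gene at 0 in WT had 0 recovered reads there, and the limit that this allows is taken as 3 reads over the 3 WT libraries together. For the silent-in-WT genes this limit lay between 0.0118 FPKM, for the longest, and 0.726 FPKM, for the shortest, with a median of 0.0768. Expression in WT below this limit could have given 0 reads at this depth, so a value of 0 does not show absence. In whole tissue, fewer expressing cells and less RNA per cell cannot be told apart. Near-identical gene copies, overlapping genes and antisense partners could not be separated from the genes named here. Limits and intervals cover counting error only, since PCR copies of a molecule were not told apart. The fold bounds given below set the GARR2KO rate against the limit of 3 WT reads. They take the GARR2KO reads as exact and leave out the counting error of those reads, which matters most where reads are few.

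**Figure D1:**
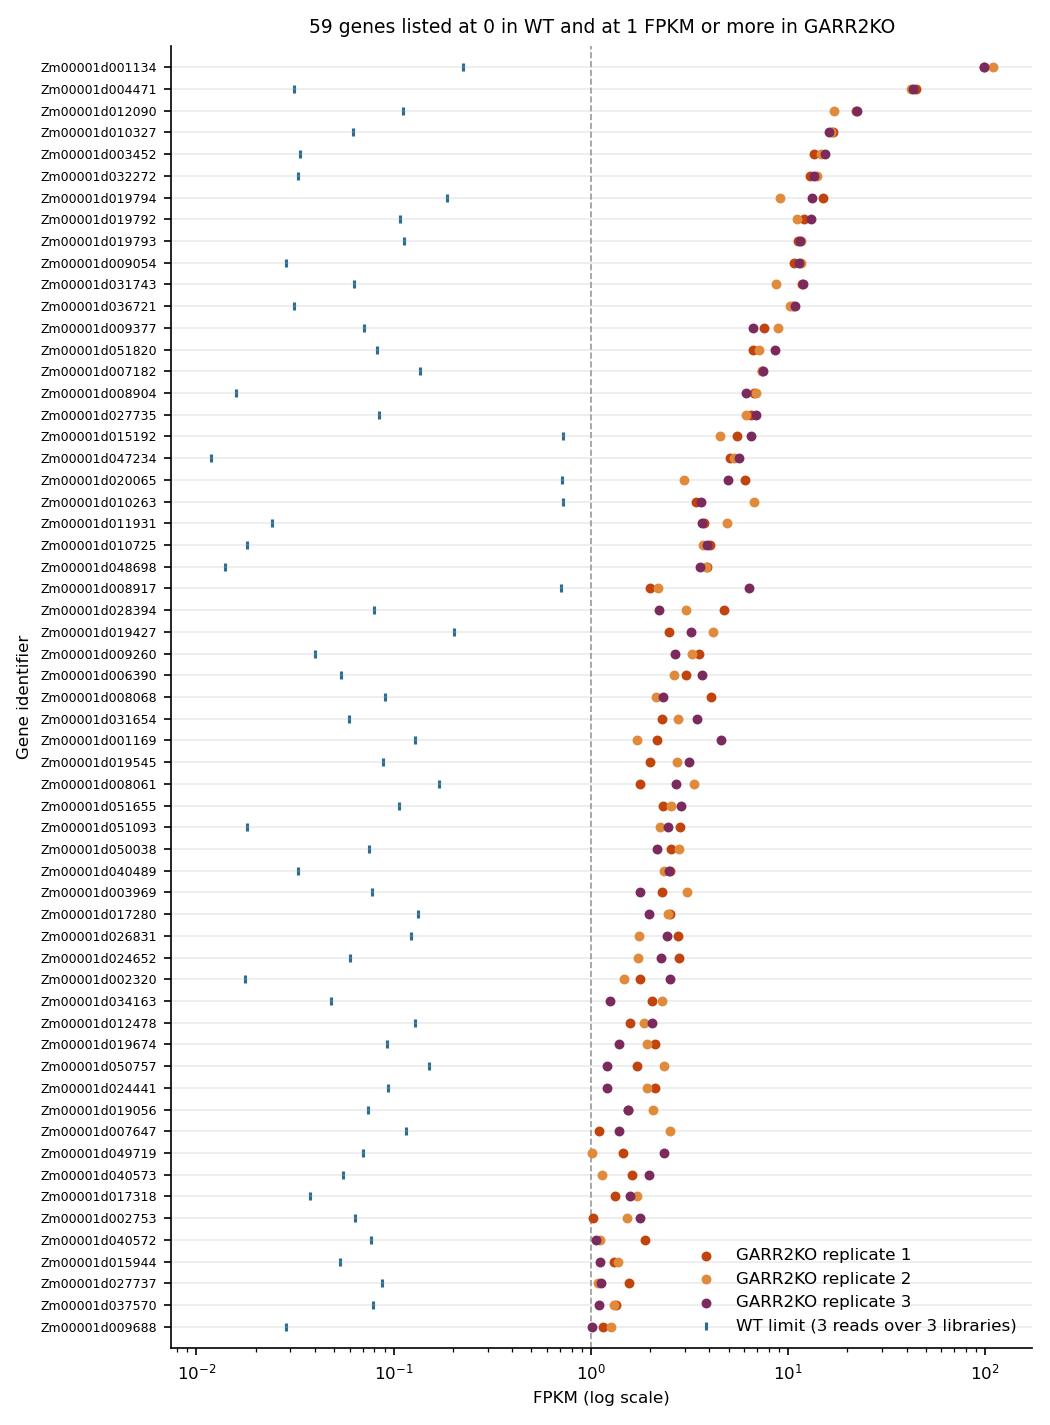
FPKM of each of the 59 genes in the 3 GARR2KO libraries (points, log axis), ordered by their mean, with the WT limit of 3 reads (bars); WT values, all 0, cannot be drawn on this axis. The genes span from 1.15 to 102.3 FPKM on average, and the WT limits all lie below the dashed line at 1 FPKM.

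Most of the silent-in-WT genes were of low abundance in GARR2KO. Their means over the 3 libraries ran from 1.15 to 102.3 FPKM, with a median of 2.85 and quartiles of 1.84 and 7.01. By mean level, 17 lay between 1 and 2 FPKM, 23 between 2 and 5, 7 between 5 and 10, and 12 at 10 or more. The other genes at 1 FPKM or more in all GARR2KO libraries had a median of 9.17 FPKM, and the median silent-in-WT gene stood at percentile 15.7 of all genes so expressed. Together the 59 genes held 423, 420.0 and 427 FPKM in GARR2KO replicates 1 to 3, from 7857, 7084 and 7483 reads. The highest value of a gene fell in GARR2KO replicate 1 for 19 genes, in replicate 2 for 19 and in replicate 3 for 21. The rule asked for at least 1 FPKM in all GARR2KO libraries, so a gene expressed in only 1 of them could not enter.

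Zm00001d001134 was the most abundant. It was listed at 98.9, 109.6 and 98.5 FPKM in the 3 GARR2KO libraries, a mean of 102.3 ± 6.3 (SD, n = 3). It made up 23.0 to 26.1% of the summed FPKM of the 59 genes, although it is short, at 233 bp, and rested on 1379 reads. Zm00001d004471 had the most reads, 4185 over a length of 1666 bp, and was listed at 44.9, 42.0 and 43.1 FPKM. Against the floor of 3 WT reads it was at least 1381-fold higher in GARR2KO, compared with at least 455-fold for Zm00001d001134, whose higher FPKM rests on fewer reads. The 3 libraries of GARR2KO were close for both genes, with coefficients of variation of 6.2% and 3.4%.

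Zm00001d012090 and Zm00001d010327 followed. The former was listed at 22.1, 17.2 and 22.3 FPKM, lowest in replicate 2, and the latter at 16.9, 16.5 and 16.1. Zm00001d003452, at 14.6 ± 0.93 FPKM, and Zm00001d032272, at 13.5 ± 0.50 (SD, n = 3 each), had 1321 and 1253 reads, over lengths of 1568 and 1602 bp. Zm00001d009054 (11.3 ± 0.46 FPKM), Zm00001d031743 (10.8 ± 1.8) and Zm00001d036721 (10.6 ± 0.36) closed this upper class together with 3 genes of consecutive identifier numbers described further on. Zm00001d031743 was the most uneven of these 3, with 11.8, 8.69 and 12 FPKM. The 12 genes at 10 FPKM or more supplied 65.8 to 66.4% of the summed FPKM of the 59.

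The 7 genes between 5 and 10 FPKM included short and long ones. Zm00001d007182 had the smallest spread of all 59, at 7.39, 7.39 and 7.51 FPKM, a coefficient of variation of 0.9% from 164 reads. Zm00001d047234 was the longest, at 4423 bp, and its 5.11, 5.36 and 5.63 FPKM rested on 1374 reads, so that it was at least 454-fold higher in GARR2KO than the WT floor. Zm00001d008904, with 6.74, 6.85 and 6.17 FPKM over 3316 bp, was at least 418-fold higher. Among these 7 genes, the WT limit was lowest for these long ones, at 0.0118 and 0.0158 FPKM. The other 4 of this class, Zm00001d027735, Zm00001d051820, Zm00001d009377 and Zm00001d015192, had means of 6.50, 7.45, 7.70 and 5.50 FPKM.

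Low FPKM did not always mean few reads. Zm00001d048698, at 3.79 ± 0.16 FPKM (SD, n = 3), held 824 reads over 3754 bp and was at least 272-fold higher than the floor. Zm00001d010725, at 3.87 ± 0.16 FPKM, held 652 reads over 2907 bp and was at least 215-fold higher. Over all 59 genes the reads in GARR2KO ran from 15 to 4185, with a median of 122, and the bound from 4.95-fold to 1381-fold. The bound was 100-fold or more for 19 genes, 10- to 100-fold for 36 and under 10-fold for 4. At their GARR2KO rates and the WT depth, the genes would have given 14.9 to 4144 WT reads each. The 0 reads recovered in WT were required by the rule, so these numbers are a description and carry no test.

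The 4 genes with bounds under 10-fold were the 4 shortest. Zm00001d010263 and Zm00001d015192 had a recovered length of 72 bp, Zm00001d020065 of 73 and Zm00001d008917 of 74, all shorter than the reads, which were 150 bp long. Their GARR2KO reads per library were few: 5, 9 and 5 for Zm00001d010263, 8, 6 and 9 for Zm00001d015192, 9, 4 and 7 for Zm00001d020065, and 3, 3 and 9 for Zm00001d008917. Their mean levels of 3.51 to 5.50 FPKM thus rested on 15 to 23 reads each. They were 4 of only 22 genes under 100 bp at 1 FPKM or more in all GARR2KO libraries, or 18.2%. In the opposite direction, 0 of 13 genes under 100 bp were at 0 in GARR2KO, which at so few genes says little of the share. The sources used here do not say how fragments were assigned to genes shorter than a read.

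The silent-in-WT genes were shorter than other expressed genes. Their median length was 681 bp, with quartiles of 456 and 1348, against 1823 bp, with quartiles of 1145 and 3115, for the other genes at 1 FPKM or more in all GARR2KO libraries. The 33 genes of the opposite direction were short as well, with a median of 882 bp. Of genes at 1 FPKM or more in GARR2KO, 1.45% of those of 100 to 500 bp were at 0 in WT, 0.749% of those of 500 to 1000 bp, 0.137% of those of 1000 to 2000 bp and 0.0751% of those of 2000 bp or more. Of genes at 1 FPKM or more in WT, 0.877%, 0.328%, 0.152% and 0.0324% of the same length classes were at 0 in GARR2KO. At a given FPKM a short gene has fewer reads, so it reaches 0 at this depth more easily, and the part of this in the order of the classes was not tested.

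**Figure D2:**
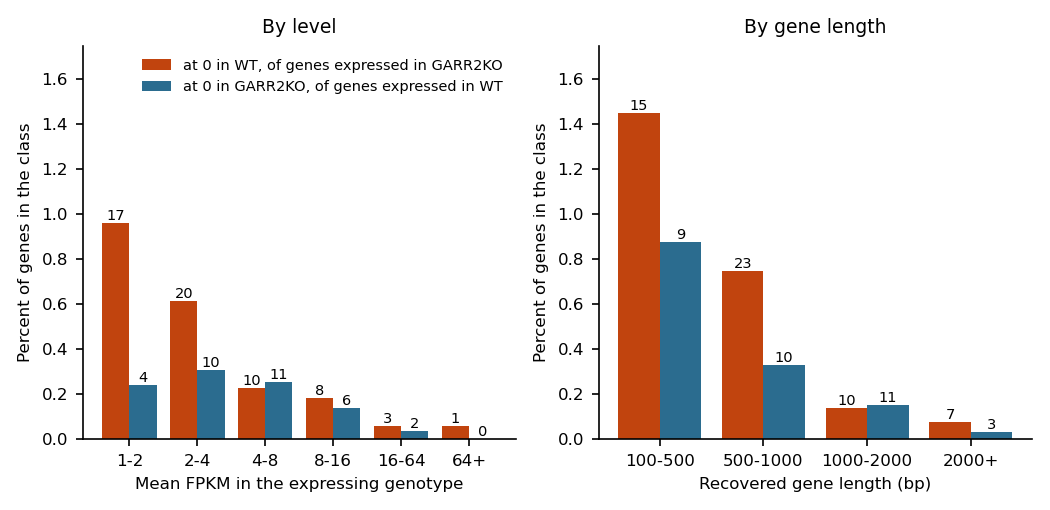
Percent of genes at 0 in the other genotype, by mean FPKM in the expressing genotype (left) and by recovered gene length (right), with the number of such genes above each bar; the 22 and 13 genes under 100 bp are not drawn. Of the lengths drawn, both shares are highest at 100 to 500 bp, and at 1 to 2 FPKM the bar for genes at 0 in WT (0.962%) is taller than that for genes at 0 in GARR2KO (0.24%).

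The share at 0 in WT was also lower at higher levels in GARR2KO, from 0.962% of genes at 1 to 2 FPKM to 0.613% at 2 to 4, 0.225% at 4 to 8, 0.181% at 8 to 16, 0.0578% at 16 to 64 and 0.0602% above. In the opposite direction the same classes of WT level held 0.24%, 0.307%, 0.255%, 0.138%, 0.0381% and 0% (0 of 1759). The larger number of genes at 0 in WT lay mostly below 4 FPKM, with 37 genes against 14; at 4 FPKM or more there were 22 against 19. The difference between the directions was not tested.

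The threshold of 1 FPKM passes through a continuous range of levels in GARR2KO. Just inside it were Zm00001d049719, with 1.45, 1.01 and 2.36 FPKM, Zm00001d009688, with 1.16, 1.26 and 1.02, and Zm00001d002753, with 1.03, 1.52 and 1.78. Just outside were Zm00001d035867, with 1.73, 2.31 and 0.978 FPKM, Zm00001d052594, with 0.915, 1.002 and 0.964, and Zm00001d019590, with 1.05, 1.05 and 0.908, all at 0 in the 3 WT libraries. A set of 250 genes was at 0 in WT and above 0 in all 3 GARR2KO libraries at any level, against 175 in the opposite direction.

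On the WT side the edge was sharper. Among genes at 1 FPKM or more in all GARR2KO libraries, 59 had 0 WT reads, 5 had 1, 11 had 2 and 2 had 3, and 46 in all had 1 to 10. Among genes at 1 FPKM or more in all WT libraries, 33 had 0 GARR2KO reads, 9 had 1, 4 had 2 and 1 had 3, and 40 had 1 to 10. The 3 most abundant genes in GARR2KO that had reads in a single WT library show what lay just outside. Zm00001d019414 was listed at 73.8, 81.7 and 86.1 FPKM in GARR2KO from 5984 reads and had 2 reads, both in WT replicate 3, a ratio of 2963 (820 to 24470). Zm00001d008035 was listed at 10.3, 9.94 and 9.46 FPKM in GARR2KO from 1236 reads and had 1 read in WT replicate 2, a ratio of 1224 (219 to 48380). Zm00001d027240, at 8.91, 8.83 and 8.89 FPKM from 3118 reads, had 5 reads, all in WT replicate 2, a ratio of 618 (264 to 1903). The intervals are exact Clopper-Pearson ones at 95% on reads pooled over the libraries of a genotype. They leave out differences between libraries and the choice of these genes by their abundance, so they are too narrow where either matters.

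**Figure D3:**
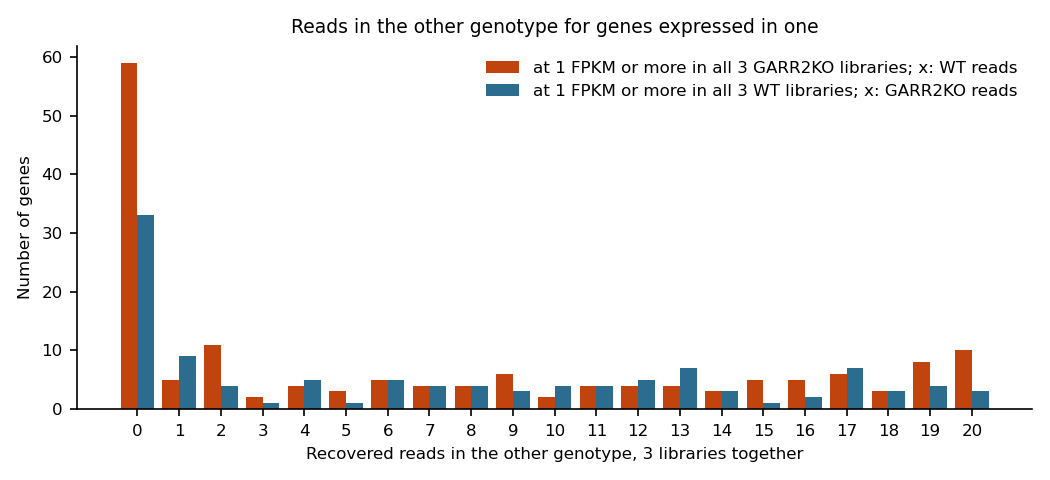
Number of genes (bars, vertical axis) by recovered reads in the other genotype, for genes at 1 FPKM or more in all 3 GARR2KO libraries (red) and in all 3 WT libraries (blue). Both sets pile up at 0, with 59 and 33 genes, and hold at most 11 genes at each count from 1 to 20.

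The spread of the silent-in-WT genes between the 3 GARR2KO libraries was wider than that of other expressed genes, and nearer to it among genes with like numbers of reads. The median coefficient of variation was 16.6%, against 6.28% for other genes at 1 FPKM or more in all GARR2KO libraries, but the latter had a median of 1161 reads. The dispersion index averages 1 when libraries differ by counting error alone, and its median is then below 1. Its median was 1.31 for the 59 genes and 1.60 for the others. In classes of reads the coefficients were nearer: 30.4% against 25.4% under 50 reads, 22.6% against 18.3% for 50 to 150, 12.6% against 11.7% for 150 to 500 and 4.60% against 5.11% for 500 or more. In the same order the median dispersion index was 1.05 against 0.732, 1.60 against 1.13, 1.54 against 1.38 and 1.22 against 1.73. Among like numbers of reads it was thus higher for the 59 genes except at 500 or more. These values describe 3 libraries and were not tested.

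In 6 genes the highest GARR2KO library was at least 2 times the lowest. The widest was the 74 bp gene Zm00001d008917, at 2.00, 2.19 and 6.33 FPKM. Zm00001d001169 was listed at 2.17, 1.72 and 4.57 FPKM and Zm00001d049719 at the values given above, both highest in replicate 3. Zm00001d007647 was highest in replicate 2, at 1.10, 2.53 and 1.39 FPKM. Zm00001d028394, at 4.75, 3.06 and 2.22, and Zm00001d020065, at 6.09, 2.97 and 4.99, were highest in replicate 1. The high library thus differed from gene to gene.

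The identifier numbers of the 59 genes ran from 1134 to 51820, with a median gap of 449 between consecutive ones and a largest gap of 6661. In this set 5 gaps were of 10 or fewer. Identifier numbers stand here for order in the annotation only, and their match to positions in the genome was not tested. Of the 59, 5 lay between Zm00001d008904 and Zm00001d009377 and 6 between Zm00001d019427 and Zm00001d019794, both inside stretches of numbers that earlier results of these data had marked as dense in changed genes. Another 2 such stretches held 0 of the 59. The identifiers named are the outermost of the 59 in each stretch and not its bounds. The stretches were marked from changed genes in these same data, and the share of all listed genes inside them was not counted. Whether the 59 were more frequent there than other genes was therefore not tested. Of the 849 other listed genes within 10 numbers of the 59, 0 were genes of the opposite direction. Such genes were only 33 of the 44087 listed genes outside the set (0.0749%), so this 0 says little. The smallest distance to one was 12, and 5 of the 59 lay within 30 numbers of one.

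The tightest group was Zm00001d019792, Zm00001d019793 and Zm00001d019794. They were listed at 12.1 ± 0.97, 11.5 ± 0.24 and 12.5 ± 3.0 FPKM in GARR2KO (SD, n = 3 each), from 338, 307 and 203 reads over 482, 462 and 279 bp. In single libraries Zm00001d019792 had 12.1, 11.1 and 13.1 FPKM, Zm00001d019793 had 11.2, 11.7 and 11.5, and Zm00001d019794 had 15.1, 9.12 and 13.2. The means of the 3 genes thus differed by less than the spread of the third. Next to them, Zm00001d019789 was at 7.77, 7.32 and 6.54 FPKM in WT and 7.51, 7.41 and 7.22 in GARR2KO, overlapping values, and the 5 listed identifiers from Zm00001d019795 to Zm00001d019799 were at 0 in all 6 libraries.

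A second group had 4 consecutive identifiers at 0 in every WT library and above 0 in every GARR2KO library. Zm00001d027735 was listed at 6.53, 6.10 and 6.87 FPKM and Zm00001d027737 at 1.57, 1.09 and 1.13. The other two, below the threshold, were Zm00001d027736, with 0.194, 0.425 and 0.408 FPKM from 5 reads, and Zm00001d027738, with 0.512, 0.336 and 0.288 from 32 reads. On either side, Zm00001d027734 was at 8.40, 8.39 and 8.36 FPKM in WT and 8.93, 7.43 and 7.86 in GARR2KO, and Zm00001d027739 at 1.57, 2.40 and 2.36 against 2.78, 2.94 and 3.11. The former overlapped between the genotypes, and the latter rose by a log2 fold of 0.35 (SE 0.12, limma adjusted p = 0.0457). Farther off, changes went both ways. Zm00001d027742 fell by a log2 fold of -0.39 (SE 0.06, limma adjusted p = 0.000857), and Zm00001d027731 rose by 0.47 (SE 0.06, limma adjusted p = 0.000441).

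The adjacent pair Zm00001d040572 and Zm00001d040573 was of low level, with 1.89, 1.11 and 1.07 FPKM and 1.62, 1.14 and 1.98 FPKM in GARR2KO. The identifier before it, Zm00001d040571, was expressed in both genotypes, at 11.4, 10.3 and 10.7 FPKM in WT and 14.3, 14.7 and 14.1 in GARR2KO, a log2 fold of 0.39 (SE 0.06, limma adjusted p = 0.000857). Zm00001d008061, with 1.78, 3.36 and 2.72 FPKM, and Zm00001d008068, with 4.08, 2.14 and 2.33, lay 7 numbers apart. Between them Zm00001d008067 was at 1.37, 1.16 and 1.27 FPKM in WT and 1.55, 1.57 and 1.90 in GARR2KO, values that did not overlap but did not pass the test (limma adjusted p = 0.0942). Zm00001d008073, 5 numbers from Zm00001d008068, rose from 3.32, 1.78 and 1.69 FPKM to 6.28, 5.97 and 5.15, a log2 fold of 1.09 (SE 0.17, limma adjusted p = 0.00136). Zm00001d008060, next to Zm00001d008061, was too low to be tested and had 12 reads in WT and 49 in GARR2KO. Zm00001d050757, at 1.72, 2.35 and 1.21 FPKM, was followed by Zm00001d050758, which was at 0 in WT and at 1.31, 1.20 and 0.689 in GARR2KO.

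**Figure D4:**
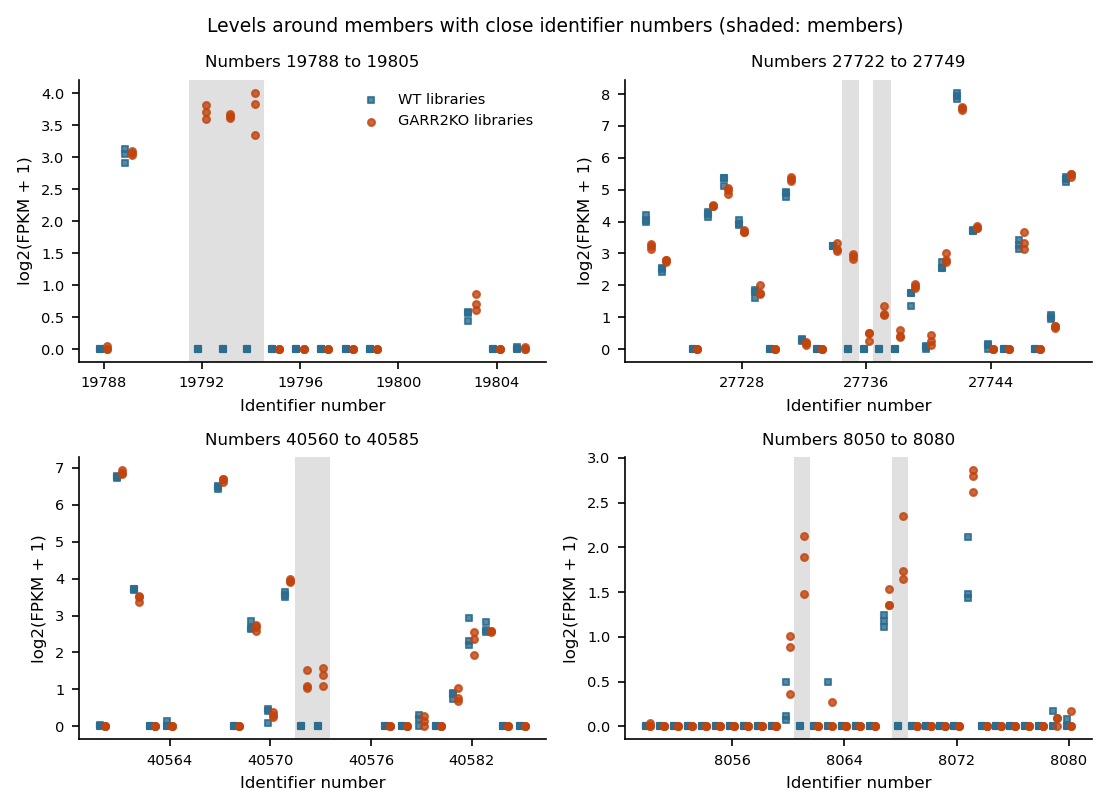
log2(FPKM + 1) of every listed gene against identifier number in 4 stretches that hold silent-in-WT genes with close numbers, with the 3 WT libraries as squares, the 3 GARR2KO libraries as circles and the silent-in-WT genes shaded. In the shaded columns WT lies at 0. Of the expressed genes close to them, Zm00001d019789 and Zm00001d027734 have overlapping WT and GARR2KO points. Zm00001d040571, Zm00001d027739, Zm00001d008067 and Zm00001d008073 have all GARR2KO points above all WT points. Other genes drawn have all GARR2KO points below all WT points, such as Zm00001d027742 and Zm00001d040562, or above them, such as Zm00001d027731 and Zm00001d040567. Genes of either kind were not counted here.

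Genes near the 59 by number were then described from a fit over all genes. Within 10 numbers lay 849 other listed genes, of which 281 (33.1%) were at 0 in all 6 libraries, against 29.6% of all genes outside the set. Another 41 (4.83%) had reads only in GARR2KO libraries, against 3.05%, and 23 (2.71%) only in WT libraries, against 2.8%. Of the 849, 373 averaged 1 FPKM or more over all 6 libraries and were tested. The contrast is the one that chose the 59, though in other genes, and neighbours share stretches, so these counts describe the surroundings and were not compared by a test.

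Of the 373 tested neighbours, 95 rose in GARR2KO (25.5%) and 97 fell (26.0%), where 20.1% of all 21531 tested genes rose and 24.1% fell (limma-trend on log2(FPKM + 1) with 3 libraries per genotype, calls at a Benjamini-Hochberg adjusted p of 0.05). Changes of 2-fold or more were found in 17 neighbours that rose (4.56%) and 7 that fell (1.88%), where all tested genes had 2.01% in the former direction and 2.01% in the latter. Of the genes tested, 42 were silent-in-WT genes themselves, and without them the share with a rise of 2-fold or more was 1.81%. The median log2 fold of the neighbours was -0.01, and that of all other tested genes outside the set was also -0.01. The share that fell by 2-fold or more depended on the window: it was 3.12% (24 of 769) within 20 numbers and 0.932% (3 of 322) without the dense stretches, which held 4 of the 7 falls. Of the 58 silent-in-WT genes with a tested neighbour, 20 (34.5%) had one that changed 2-fold or more, with a median of 6 tested neighbours each. Of 20636 other genes at 1 FPKM or more in all GARR2KO libraries, counted in the same way, 4958 (24.0%) had one, with a median of 9. The difference was not tested.

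The largest changes among the neighbours, named after their values were seen, went both ways. Zm00001d020068, 3 numbers from Zm00001d020065, was outside the set for its WT reads: it had 0.0800, 0 and 0.0944 FPKM in WT and 14.1, 14.1 and 14.2 in GARR2KO, a log2 fold of 3.84 (SE 0.08, limma adjusted p = 2.65e-08). Zm00001d019541, 4 numbers from Zm00001d019545, fell from 65.4, 63.8 and 67.6 FPKM to 7.62, 6.64 and 6.54, a log2 fold of -3.07 (SE 0.06, limma adjusted p = 2.79e-08). Zm00001d019552, 7 numbers to the other side of the same gene, rose from 2.73, 3.12 and 2.49 FPKM to 22.4, 20.5 and 22.2, a log2 fold of 2.59 (SE 0.08, limma adjusted p = 1.53e-07). Zm00001d017288, near Zm00001d017280, rose from 17.5, 16.7 and 16.1 FPKM to 95.1, 108.5 and 97.4, a log2 fold of 2.51 (SE 0.06, limma adjusted p = 5.05e-08). In each the WT and GARR2KO libraries did not overlap.

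**Figure D5:**
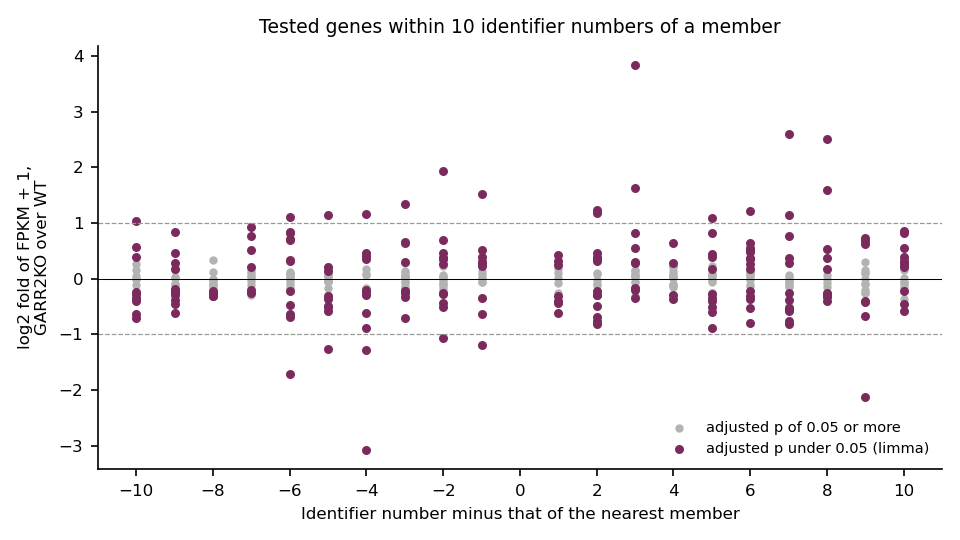
log2 fold of FPKM + 1, GARR2KO over WT, of the 373 tested genes within 10 identifier numbers of a silent-in-WT gene, against the difference in number; coloured points passed limma's adjusted p of 0.05 and dashed lines mark 2-fold. Points lie on both sides of 0 at every distance, with 17 rises and 7 falls of 2-fold or more.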

How the data were processed

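Each library came from the authors as its own table, without header, of identifiers and values. The deposited values were taken as FPKM, since TopHat2, Cufflinks and Cuffdiff are named, without versions, in the submitters' processing notes, as is the build B73 RefGen_v4. The values carry no unit, so whether single reads or fragments were counted is not known. The recovered reads, limits and fold bounds are in whichever of these was counted. The sources used here do not give the annotation release, strand use, treatment of multi-mapping reads or filters, so genes with near-identical copies or overlapping partners are uncertain. The gene table at hand, of another assembly, matched 0 of 44146 identifiers.

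Reads and lengths were recovered from the steps of the FPKM values. All 31076 genes above 0 gave whole multiples (within 0.001, wider for very high counts), and 99.3% of 2000 genes gave a whole length (within 0.02 bp). The smallest whole solution with a length of at least 60 bp was taken, so a common factor can remain. In simulated data of 6000 genes, 99.2% of the 5633 genes above 0 in 3 or more libraries were recovered without error. Summed gene reads need not equal the total that scaled a library.

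The 59 genes, the lists and the neighbour distance were chosen with earlier results of these data known. Named genes are those at 10 FPKM or more, those at the edges of the rule, those with close numbers and those with the largest and smallest coefficient of variation. Any others were chosen after their values were seen. The marker and product lists had no matched identifier and were not used. The neighbours were tested with limma 3.58.1 under R 4.3.3 (its trend method, a single genotype term, values as log2(FPKM + 1)) among genes averaging 1 FPKM or more, where 42 of the 59 also entered. It understates changes of low genes. In data simulated for GARR2KO against WT over 21461 genes, it recovered 80% of 50 changes of 1.5-fold and 96% of 50 of 2-fold, and called 0.0611% of unchanged genes. The simulation changed only 200 genes, none with few reads, and gave all genes 1 common spread beyond counting error. In the data 44.1% of the tested genes outside the set were called, so these shares need not hold there.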

Additional observations from a re-analysis of the deposited data

How the results depend on the processing

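The 59 genes became 81 with a minimum of 0.5 FPKM, and by construction 36 with a minimum of 2 FPKM, 18 with 5 and 10 with 10. They became 64 when 1 WT read was allowed, 67 with up to 0.05 FPKM in each WT library and 59 after median-of-ratios scaling. Leaving out a library, which loosens the rule, gave 63 to 67. The median level of 2.85 FPKM ran from 2.68 to 3.11 when a GARR2KO library was left out, and the summed level of 423 FPKM was 431 with scaling by summed gene reads and 421 to 425 without a library. The spread relative to other genes was 2.64 times by the coefficient of variation and 2.28 times by the SD of log2(FPKM + 1).

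Neighbours that rose and fell, 95 and 97, of 373 tested, numbered 47 and 48 of 195 within 5 numbers and 184 and 194 of 769 within 20. Those changed 2-fold or more, 17 up and 7 down, numbered 10 up within 5 numbers, and 31 up and 24 down within 20. With a minimum mean of 5 FPKM they were 10 up (4.02%) and 7 down (2.81%) of 249. All tested genes outside the set then had 1.58% and 1.95%. Without the 4 stretches of identifiers that earlier results had marked as dense in changed genes, they were 14 up and 3 down of 322. That alternative was chosen after seeing the data. All 24 of the main fit were called in the same direction in every setting that tested them. They were picked by that fit, and the settings refit the same libraries, so this agreement says little. The lowest log2 fold over the settings was under 1 for Zm00001d024435 (0.99), Zm00001d008073 (0.97) and Zm00001d002743 (0.94). The balance of rises and falls moved with the scaling: 98 rose and 93 fell with median-of-ratios scaling, 103 and 87 with quantile normalization, 111 and 87 with voom on recovered reads. Leaving out a library gave 75 to 90 up, 81 to 92 down, 15 to 18 up by 2-fold and 7 down by 2-fold. WT and GARR2KO libraries of 1 number share nothing in the labels but the number, and their deviations from the group means had correlations of -0.051, -0.046 and 0.049. With the replicate block, 86 rose (23.1%) and 91 fell (24.4%), against 18.7% and 22.8% of all tested genes outside the set. Depth limits the listing at 0 most for the shortest genes.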
